A study of Macaca fascicularis with 6 samples.

Results

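The liver's cytochrome P450 system for drugs and other foreign compounds was described here as 34 genes chosen by name: 25 P450 enzymes, 3 genes that supply them with electrons or heme, 3 receptors that control them and 3 further oxidising or hydrolysing enzymes. Signals came from liver of 6 cynomolgus macaques (Macaca fascicularis), 1 animal on each array. Of these, 3 had received vehicle and 3 an LXR ligand, a compound that binds the sterol-sensing nuclear receptors called liver X receptors. The ligand is abbreviated GW in the array titles without explanation, and dose, length of treatment, age and sex are not given there. On an array designed against human transcripts, 30 of the 34 genes had at least 1 probe set naming that gene alone, out of 54675 probe sets in all. CYP3A7 was named only by probe sets that carry a further symbol, and NR1I2, CYP2C18 and CYP2C19 were not analysed here.

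Cytochrome P450 enzymes are heme proteins of the endoplasmic reticulum that insert oxygen into lipophilic molecules, and the liver carries most of the body's capacity for this step. Electrons reach them from NADPH through the reductase POR, with cytochrome b5 (CYB5A) as a second donor, while ALAS1 starts the synthesis of their heme. Transcription of the CYP2B, CYP2C and CYP3A enzymes is raised by the xenobiotic receptors PXR (NR1I2) and CAR (NR1I3), and that of the CYP1 enzymes by the aryl hydrocarbon receptor AHR.

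Ligand array 1 stood apart from the other 5 on the first principal component of the tested probe sets, at -89.8 against 0.632 to 36.8. Its weight is given with several of the results it touches.

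No member of the system passed the test for a difference between the animals given the ligand and those given vehicle. The brightest probe set naming a gene alone stood for that gene, and the 27 genes whose mean signal was at least 129, the median of all probe sets, were tested with limma on log2(signal + 16), the scale of all differences and fold changes below. Of the 27, 18 (66.7%) had a higher mean log2 signal with the ligand, against 50.3% of all genes tested, and 9 a lower one. At a Benjamini-Hochberg adjusted p under 0.05, 0 passed, the smallest limma adjusted p being 0.89. Among the 13349 genes tested on the array, 0 passed as well (0%), so this count says nothing particular about the members. At an unadjusted p under 0.05 the members numbered 0, against 817 genes (6.12%) overall. All ligand arrays lay above all vehicle arrays in 0 of the 27, against 6.21% of genes, and below in 0, against 5.21%. The members' median log2 difference was 0.099, beside 0.0027 for all genes tested, and the median size regardless of sign was 0.19, beside 0.24. The signed median was -0.021 without vehicle array 1, 0.22 without vehicle array 2, 0.041 without vehicle array 3 and 0.047 without ligand array 1. Each array is a different animal, so the errors hold the spread between animals as well as that of the measurement.

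The width of the intervals sets what these 3 arrays per group could show. The differences ran from -0.60 for CYP2J2 to 0.35 for CES2, with a median SE of 0.27. Single arrays moved both ends: CES2 was at 0.094 without vehicle array 3, 0.11 without ligand array 1 and 0.59 without vehicle array 2, and CYP2J2 at -0.94 without vehicle array 1 and -0.34 without vehicle array 2. For 18 of the 27 genes the 95% interval held neither a 2-fold rise nor a 2-fold fall, and for all 27 it included no change.

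**Figure D1:**
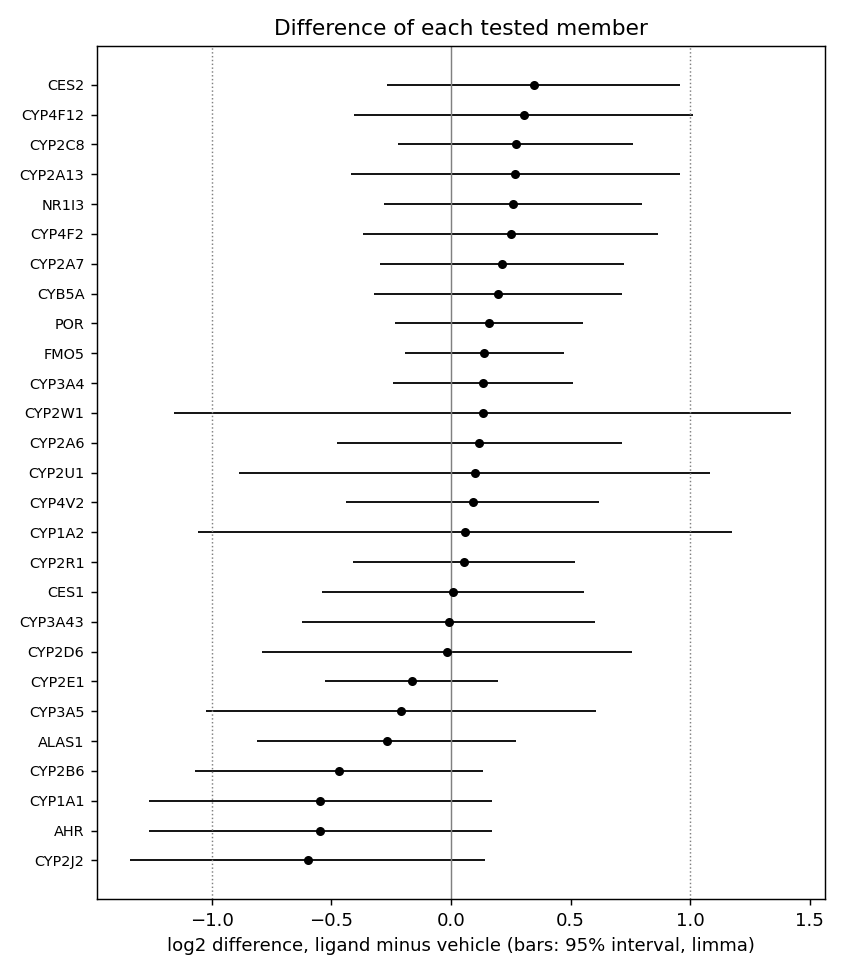
Log2 difference, ligand minus vehicle, of the 27 tested genes (points) with 95% limma intervals (bars); dotted lines mark a log2 change of 1 in either direction. Every interval crosses 0, and the point estimates lie between -0.60 (CYP2J2) and 0.35 (CES2).

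CYP3A4, the enzyme that oxidises the widest range of drugs, gave different answers on its 5 tested probe sets. On the brightest, signals were 99095, 113494 and 90800 with vehicle and 133213, 105631 and 95929 with the ligand. These groups overlapped, at a log2 difference of 0.13 ± 0.17 (SE) and a fold of 1.10 (95% interval 0.845 to 1.43). Without ligand array 1 the log2 difference on it was -0.00055. On the second brightest, signals were 67220, 48067 and 29790 with vehicle and 141261, 91233 and 77653 with the ligand. The lowest ligand array exceeded the highest vehicle array there, from a mean of 48359 ± 18716 to 103382 ± 33499 (SD, n = 3 per group), 2.18-fold.

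The next CYP3A4 probe set in order of brightness separated the groups with little spread. Its signals were 2629, 2384 and 2278 with vehicle and 4713, 4133 and 5465 with the ligand, 1.95-fold apart. Neither of these 2 probe sets passed over all probe sets tested, with limma adjusted p = 0.755 for the second brightest and 0.427 for the next. Their log2 differences were 1.13 ± 0.30 and 0.96 ± 0.19 (SE), and leaving out each array in turn gave 0.82 to 1.40 and 0.86 to 1.06. The other 2 CYP3A4 probe sets had overlapping groups and opposite signs, with a log2 difference of 0.85 ± 0.43 (SE) on the fourth in brightness and -1.26 ± 0.77 on the dimmest, where ligand array 3 read 9.30 against 116 to 217 elsewhere.

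CYP3A7 is the CYP3A enzyme of fetal human liver, and in the macaque annotation of assembly T2T-MFA8v1.1 its gene lies between CYP3A5 and CYP3A4. A bright probe set carries its symbol together with that of the read-through transcript CYP3A7-CYP3A51P. Signals there were 25834, 14051 and 16205 with vehicle and 56444, 32220 and 31119 with the ligand. Again all ligand arrays were above all vehicle arrays, 2.13-fold, at a log2 difference of 1.09 ± 0.28 (SE) and limma adjusted p = 0.71. On both this probe set and the second CYP3A4 one, ligand array 1 was highest and vehicle array 1 the highest of its group. A second, dim probe set with the same 2 symbols read 13.2 to 267 with no separation.

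The remaining CYP3A genes did not share this separation. CYP3A5, which only some human livers make in quantity, had signals of 4050, 4270 and 1798 with vehicle and 3212, 3583 and 1744 with the ligand on its brightest probe set. Its log2 difference was -0.21 ± 0.37 (SE), with vehicle array 3 and ligand array 3 both low, and its second tested probe set gave -0.95 ± 0.46. CYP3A43, a minor member of the family in human liver, was read by 4 tested probe sets with log2 differences from -0.010 to 0.064. Of all 12 tested CYP3A probe sets, the shared one included, 8 were higher and 4 lower with the ligand, and 3 had non-overlapping groups. These probe sets were singled out after their values were seen, and over all 56 tested probe sets of the members, shared ones included, 4 had every ligand array on top (7.14%), against 5.99% of the 27304 probe sets tested, and 0 had every ligand array at the bottom, against 4.96%. The same 4 were the only ones with an unadjusted p under 0.05, a call that 5.58% of all probe sets gave.

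**Figure D2:**
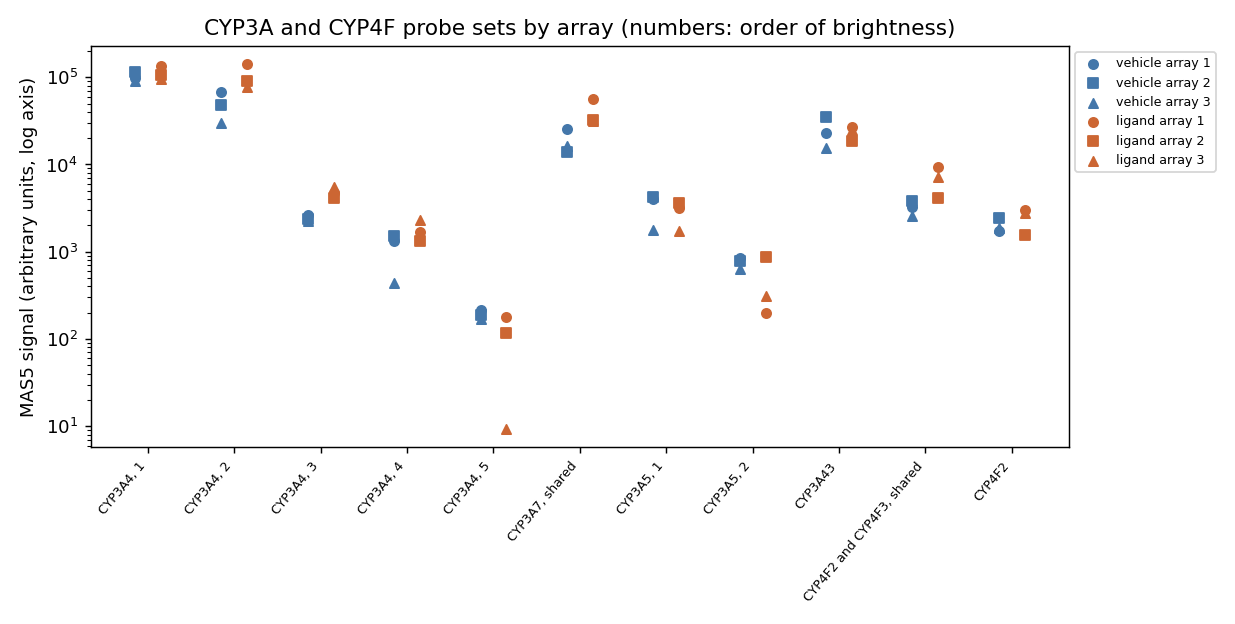
MAS5 signal (log axis) on each vehicle array (blue) and ligand array (orange) for the 5 tested CYP3A4 probe sets, the shared CYP3A7 probe set, both tested CYP3A5 probe sets, the brightest CYP3A43 probe set and 2 CYP4F probe sets. Numbers give the order of brightness within a gene. Groups separate on CYP3A4 probe sets 2 and 3 and on both shared ones, and overlap on the others. Heights of different probe sets are not comparable.

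The probe sets of these families may read more than 1 macaque transcript. In Affymetrix names the ending _x_at marks a probe set with probes that can match unrelated or related transcripts, and _s_at one shared by several transcripts of a family. Of the 52 tested probe sets that named a single member, 18 ended in _x_at, 10 in _s_at and 1 in _f_at. The 3 separating CYP3A probe sets thus include 1 of the _x_at kind and 2 without such an ending. Among the overlapping ones, the brightest and the fourth CYP3A4 probe sets and all 4 of CYP3A43 also ended in _x_at. Which transcripts these probe sets read was not tested, so their values may not be those of the named gene alone.

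CYP4F2 and CYP4F3, hydroxylases of fatty acids, leukotrienes and vitamins E and K, share a probe set on which the groups also separated. Signals on it were 3281, 3828 and 2598 with vehicle and 9276, 4136 and 7158 with the ligand. All ligand arrays were above all vehicle arrays, 2.03-fold, at a log2 difference of 1.02 ± 0.29 (SE) and limma adjusted p = 0.825, although ligand array 2 exceeded vehicle array 2 by little. Ligand array 1 was the highest on this probe set, on the second CYP3A4 one and on that of CYP3A7, and without it the log2 differences were 0.76, 0.88 and 0.81. The probe set naming CYP4F2 alone read 1723, 2446 and 1852 with vehicle and 3023, 1572 and 2763 with the ligand, overlapping, at 0.25 ± 0.28 (SE). Ligand arrays 1 and 3 were the highest on both. CYP4F12 had signals of 358, 446 and 344 with vehicle and 684, 472 and 327 with the ligand, a log2 difference of 0.30 ± 0.32 (SE) in which ligand array 1 alone stood well above the rest. CYP4V2, a fatty acid hydroxylase linked to a retinal dystrophy, was at 0.090 ± 0.24 (SE) on the brightest of 3 tested probe sets.

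Among the CYP2 genes, CYP2J2 and CYP2B6 had the lowest differences. CYP2J2, which turns arachidonic acid into epoxides, had signals of 475, 1105 and 858 with vehicle and 423, 632 and 469 with the ligand. Vehicle arrays 2 and 3 were the highest, vehicle array 1 lay among the ligand arrays, and the log2 difference was -0.60 ± 0.33 (SE), 1.52-fold lower. CYP2B6 is the classical target of CAR. The brightest probe set naming it alone read 1255, 1046 and 975 with vehicle and 773, 1064 and 579 with the ligand. Only ligand array 2 overlapped the vehicle range, and the log2 difference was -0.47 ± 0.27 (SE). A dimmer tested probe set naming CYP2B6 alone also had overlapping groups, at -0.31 ± 0.31 (SE). A brighter probe set shared by CYP2B6 and the pseudogene CYP2B7P went the other way, with signals of 74348, 87864 and 57464 with vehicle and 103669, 82325 and 92848 with the ligand, overlapping, at 0.36 ± 0.19 (SE).

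CYP2C8, an oxidiser of taxanes and arachidonic acid, had signals of 5707, 4156 and 3550 with vehicle and 4587, 5401 and 5971 with the ligand. The ranges overlapped widely, at a log2 difference of 0.27 ± 0.22 (SE). CYP2E1, which oxidises ethanol and other small molecules around the central vein, read 111352, 127911 and 122718 with vehicle and 122396, 113981 and 88955 with the ligand. Ligand array 3 was the lowest, and the log2 difference was -0.16 ± 0.16 (SE), with the other 2 bright CYP2E1 probe sets at -0.087 and -0.16.

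Among the CYP2A genes, CYP2A6 oxidises nicotine and coumarin in human liver. CYP2A7 had signals of 23137, 45400 and 31455 with vehicle and 40376, 34598 and 36959 with the ligand, the vehicle arrays holding both the lowest and the highest value, at 0.21 ± 0.23 (SE). CYP2A6 had 4 tested probe sets with log2 differences from -0.054 to 0.14, and on its brightest vehicle array 2 read 122738 against 53359 to 86117 on the other 5. CYP2A13 was at 0.27 ± 0.31 (SE). CYP2A6 and CYP2A7 are among the members whose symbols do not occur in the macaque annotation, where 26 of the 30 named members do. Such human names may stand for differently named macaque genes.

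The other CYP2 genes gave small differences relative to their errors. CYP2D6, the oxidiser of many amines, was at -0.016 ± 0.35 (SE) on the brightest probe set naming it alone. A far brighter one shared with CYP2D7 and a further locus read 32335, 57183 and 30355 with vehicle and 18968, 33194 and 37435 with the ligand, overlapping, at -0.42 ± 0.30 (SE). CYP2R1, the vitamin D 25-hydroxylase, was at 0.056 ± 0.21 (SE). CYP2U1 and CYP2W1 varied widely among the vehicle animals, with highest-to-lowest signal ratios of 4.20 and 4.61 there, and had log2 differences of 0.099 ± 0.44 and 0.13 ± 0.58 (SE). For CYP2U1, CYP2W1, CYP1A2 and CES1 the mean signal was lower with the ligand while the mean log2 signal was higher, and for CYP2D6 the reverse held.

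The CYP1 enzymes oxidise planar aromatic compounds that cells take up from smoke and char. CYP1A1 had signals of 1437, 2089 and 1002 with vehicle and 1373, 963 and 719 with the ligand. The ranges overlapped, at a log2 difference of -0.55 ± 0.32 (SE), 1.46-fold lower. That difference was -0.28 without vehicle array 2 and -0.81 without vehicle array 3. CYP1A2 read 682, 3243 and 791 with vehicle and 1658, 1113 and 1078 with the ligand. Vehicle array 2 was the highest, the other vehicle arrays the lowest, and the log2 difference of 0.057 ± 0.50 (SE) turned to -0.35 when vehicle array 1 was left out, to -0.24 without vehicle array 3 and to -0.14 without ligand array 1. CYP1B1 was below the filter on all 4 of its probe sets, the brightest of which read 89.6 to 145.

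AHR, the receptor for these compounds, had its highest signal on the same array. Its signals were 497, 871 and 415 with vehicle and 326, 452 and 377 with the ligand, a log2 difference of -0.55 ± 0.32 (SE), with vehicle array 2 far above the rest and the other ranges overlapping. The AHR difference was -0.24 without vehicle array 2 and -0.76 without vehicle array 3. Vehicle array 2 was thus the highest of the 6 for AHR, CYP1A1 and the brightest CYP1A2 probe set. A dimmer tested CYP1A2 probe set did not share this, and vehicle array 1 was the highest on it. It read 395, 240 and 67.7 with vehicle and 79.9, 334 and 281 with the ligand, at a log2 difference of 0.061 ± 0.67 (SE). By brightest probe set, vehicle array 2 was the highest for 11 of the 27 members, while vehicle array 3 was the highest for 0 and the lowest for 9.

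NR1I3 encodes CAR, a receptor that moves to the nucleus when drugs such as phenobarbital are present. Signals were 2374, 1862 and 1333 with vehicle and 2018, 2157 and 2327 with the ligand. The ligand values lay within the vehicle range, at a log2 difference of 0.26 ± 0.24 (SE).

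**Figure D3:**
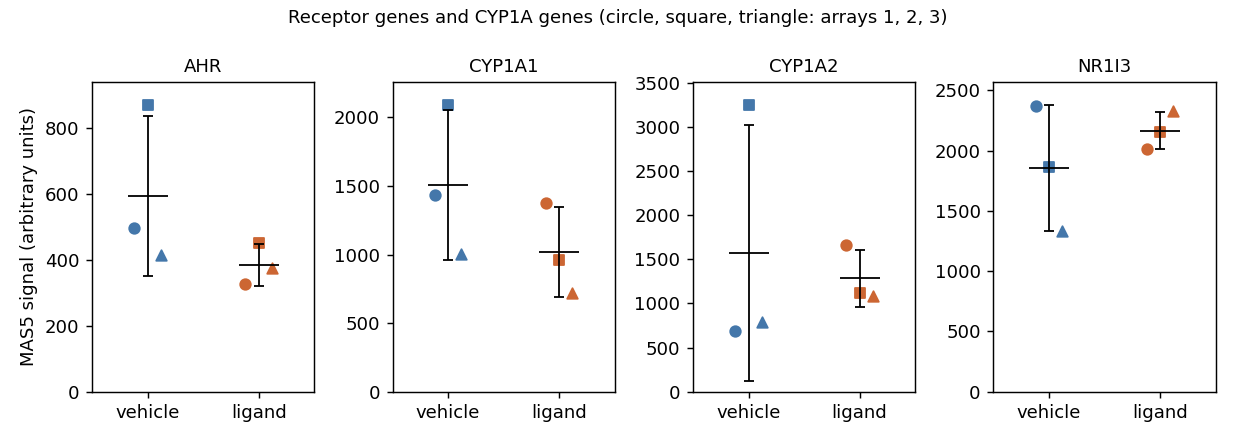
MAS5 signal of AHR, CYP1A1, CYP1A2 and NR1I3 on each array (circle, square and triangle for arrays 1, 2 and 3), with the group mean (line) and SD (bars), n = 3 per group. Each gene is shown by its brightest probe set. Vehicle array 2 (blue square) is the highest on those of AHR, CYP1A1 and CYP1A2, at 871, 2089 and 3243, but not on that of NR1I3.

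POR, the reductase that every microsomal P450 depends on, had signals of 9419, 9658 and 7773 with vehicle and 9746, 11091 and 9102 with the ligand, overlapping, at a log2 difference of 0.16 ± 0.18 (SE). CYB5A was higher on all 4 of its tested probe sets, by 0.11 ± 0.32 to 0.31 ± 0.30 (SE), without separation on any. Each of these differences turned negative when a single array was left out. Without vehicle array 3 the 2 brightest were at -0.018 and -0.11, and without ligand array 2 the other 2 were at -0.0042 and -0.071. ALAS1 read 20853, 12459 and 18471 with vehicle and 14589, 10707 and 17532 with the ligand. Array 2 was the lowest in both groups, and the log2 difference was -0.27 ± 0.24 (SE).

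The esterases and the flavin monooxygenase handle drugs without P450. CES2, an esterase that activates or clears ester prodrugs, had signals of 18661, 26307 and 13136 with vehicle and 32686, 19591 and 20654 with the ligand. Ligand array 1 was the highest and vehicle array 3 the lowest, and the log2 difference of 0.35 ± 0.28 (SE) stood beside -0.022 and 0.064 on its other 2 tested probe sets. CES1, the main esterase of human liver, was at 0.0095 ± 0.25 (SE). FMO5 had signals of 44306, 39864 and 43735 with vehicle and 43240, 51469 and 46390 with the ligand, at 0.14 ± 0.15 (SE). A dimmer tested FMO5 probe set gave -0.28 ± 0.39 (SE). By brightest probe set FMO5 was the steadiest member, its highest array reading 1.29 times its lowest, whereas CYP1A2 had the widest such range at 4.76 times. On the dimmer FMO5 probe set that ratio was 3.19.

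**Figure D4:**
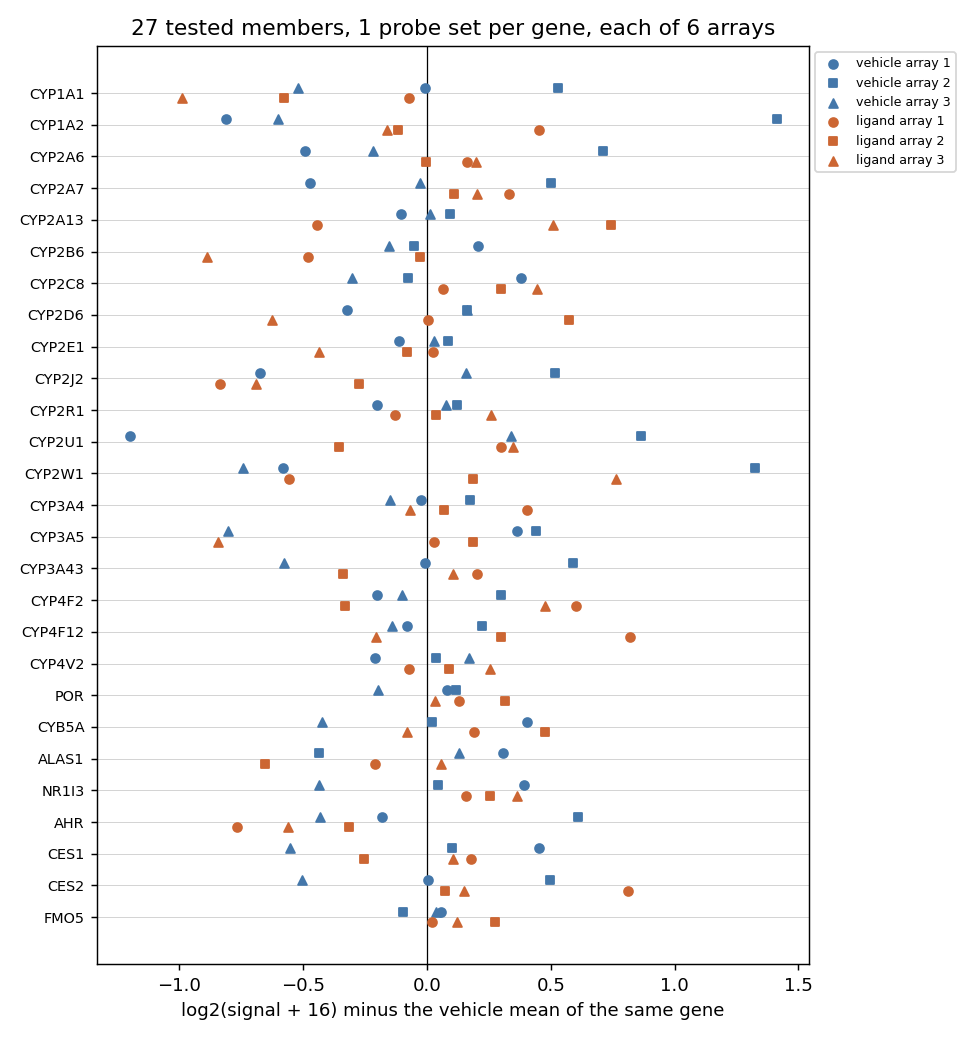
Log2(signal + 16) of each tested gene on each array, minus that gene's vehicle mean, with vehicle arrays in blue and ligand arrays in orange. Groups overlap for all 27 genes; vehicle array 2 (blue square) is the highest for 11 of them and vehicle array 3 (blue triangle) the lowest for 9.

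Besides CYP1B1, CYP4F3 and CYP4F11 were too dim to be tested. The only probe set naming CYP4F3 alone read 7.38, 73.9 and 80.7 with vehicle and 34.5, 10.6 and 49.7 with the ligand. CYP4F11 read 8.41 to 91.2.

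Genes of the same system outside the members were taken from 6 lists, and 0 of their tested genes passed. Among partners of the receptors and liver transcription factors, 16 of the 21 genes tested were lower, and the median log2 difference was -0.092. FOXA1, a pioneer factor of liver genes, read 2401, 2473 and 2628 with vehicle and 1398, 1775 and 1515 with the ligand, so that all ligand arrays were below, at -0.68 ± 0.20 (SE) and limma adjusted p = 0.829. CEBPA, a factor of hepatocyte differentiation, was at -0.57 ± 0.22 (SE) and FOXA3, related to FOXA1, at -0.54 ± 0.21. RXRA, the partner that LXR, CAR and PXR share, was at -0.016 ± 0.25 (SE).

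In the list of further phase I enzymes, 21 of the 37 genes tested were higher, and the median log2 difference was 0.072. NQO1, a quinone reductase of the oxidative stress response, had signals of 1058, 1359 and 1041 with vehicle and 1713, 2692 and 2291 with the ligand. All ligand arrays were above, 1.91-fold, at 0.93 ± 0.24 (SE) and limma adjusted p = 0.71. BCHE, a plasma esterase made by liver, was at 0.97 ± 0.36 (SE) and the monooxygenase FMO4 at 0.64 ± 0.24. Ligand array 1 was the highest for both, reading 2108 for BCHE against 474 to 1202 elsewhere.

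Heme synthesis and breakdown had 9 of the 11 genes tested higher, and a median log2 difference of 0.18. The smallest p were those of HMOX1, the heme oxygenase, at 0.95 ± 0.42 (SE), and of UROD and FECH, late steps of heme synthesis, at 0.53 ± 0.25 and 0.48 ± 0.26. HMOX1 is also a gene of macrophages that take up red cells. Of other electron donors and partners, 5 of 8 tested genes were lower, with CYB5R2 at -1.17 ± 0.50 (SE), CYB5B at -0.49 ± 0.31 and CYB5R4 at -0.37 ± 0.33.

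Other P450 genes, among them several that act on sterols and steroids, were lower in 10 of 16 tested cases. CYP17A1, the steroid 17-hydroxylase, read 21249, 44407 and 38415 with vehicle and 21957, 21604 and 15287 with the ligand, with vehicle array 1 among the ligand arrays, at -0.77 ± 0.27 (SE) and limma adjusted p = 0.829. CYP8B1, the sterol 12-hydroxylase of bile acid synthesis, was at -0.49 ± 0.21 (SE). CYP11B1, an adrenal enzyme, was at -1.36 ± 0.60 (SE), with vehicle array 1 at 1164 and the other 5 arrays at 118 to 436. Drug transporters were higher in 11 of 14 tested cases, with a median log2 difference of 0.28. Among them were the exporter SLC47A1 at 0.54 ± 0.29 (SE), the bile salt pump ABCB11 at 0.92 ± 0.56 and ABCC3 at 0.71 ± 0.43. Ligand array 1 was the highest for SLC47A1 and for ABCB11, where it read 2118.5 against 350 to 1339 elsewhere, but not for ABCC3. The weight of ligand array 1 in this list was not tested.

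The arrays themselves differed in ways that touch these values. Liver samples mix several cell types, and fewer cells of a type cannot be told apart from less RNA per cell. Hepatocyte markers such as ALB were bright on every array, and the summed signal of 10 was 674713 to 799768 with vehicle and 742858 to 785231 with the ligand. That of 9 macrophage markers did not overlap, at 5027 to 7374 with vehicle and 11174 to 12547 with the ligand. All 8 tested markers were higher, and 5 of them had non-overlapping groups. TIMD4, too dim to be tested, had means of 61.1 with vehicle and 40.8 with the ligand. C1QC, MARCO, CD163 and C1QB were the brightest macrophage markers and weighed most in their sum. The sum of 10 stellate cell and fibroblast markers did not overlap either, at 17344 to 27017 with vehicle and 32777 to 45883 with the ligand, with 7 of 10 higher. DCN and COL3A1 were the brightest of these and weighed most in the sum. All ligand arrays were above for COL3A1, at a log2 difference of 1.12 ± 0.29 (SE), but below for COL1A1, at -0.22 ± 0.20. For 12 endothelial markers the sums overlapped, at 14369 to 25970 and 20948 to 28254, with 10 of 12 higher and VWF, a clotting factor of endothelium, 10.5-fold lower. The part of these cell types in the CYP3A, CYP4F and NQO1 values was not tested. The 3' to 5' signal ratio of the actin control, a sign of RNA integrity, was 4.45 to 8.34 with vehicle and 6.16 to 16.04 with the ligand, highest on ligand array 3, and its part was not tested. SREBF1, a known LXR target, was 5.93-fold higher with the ligand, and its groups did not overlap. It did not pass either, at limma adjusted p = 0.37.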

How the data were processed

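The authors deposited linear intensity values made with MAS5 per the submitters' processing notes; the version and settings are not given in the sources used here. The 2% trimmed mean was 500.1 on every array, so the authors' scaling was kept. Groups came from the array titles. Of 54675 probe sets, 41097 had 1 gene symbol, 1801 several and 11777 none in the platform annotation. Of the 30 named members, 26 symbols also occur in the macaque annotation of assembly T2T-MFA8v1.1, used for names and gene order only.

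Signals were transformed to log2(signal + 16). The 27304 probe sets with a mean of at least 129, without the 62 controls, were fitted with lmFit and eBayes (intensity trend, two-sided) (limma 3.58.1, R 4.3.3). All 6 arrays entered, no covariate was used, and p was adjusted over all 27304 by Benjamini-Hochberg; the code was tested on simulated data. Figures were drawn with matplotlib 3.10.9. Detection calls were not used here. The number of arrays limits the precision.

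Values are given for the 12 tested members of smallest p and for any with non-overlapping groups. They are also given for 10 members by name, except NR1I2, which was not analysed, and for up to 3 genes of each related list. The members and lists were chosen with earlier results of these data known. No sequences are shown, since none were used here.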

Additional observations from a re-analysis of the deposited data

How the results depend on the processing

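The alternatives changed the pseudocount (1 or 64), the scaling (quantile or median centring), the filter (none, or the 75th percentile), the eBayes setting (no trend, or robust), added the replicate number as a block, averaged each gene's probe sets, or left out an array. The count of members passing was 0 under all 16, and so were the counts in the 6 related lists. Over all probe sets it was 0 except for 1 without vehicle array 2 and 1 without ligand array 2 (range 0 to 1). The members' median ran from -0.021 to 0.22 when an array was left out and from 0.059 to 0.0995 otherwise. Without one array, CYP1A2 ran from -0.35 to 0.76, CYP2A7 from -0.021 to 0.46 and CYP3A4 from -0.00055 to 0.24, and FMO5 turned to -0.073 on the mean of its probe sets. The other 11 of 15 named members kept their sign under all 16. None of the 16 used a shared probe set, and the brighter, shared one of CYP2B6 was at 0.36 against -0.47 on the one tested for that gene. Same-numbered arrays deviated with correlations of 0.04, -0.031 and 0.07, so the numbers were not taken as pairs; with the replicate block 0 members passed and the second CYP3A4 probe set had limma adjusted p = 0.262. With 3 arrays per group and dim probe sets near the background, differences under 2-fold could often not be resolved.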
